A study of Mus musculus with 6 samples.

Results

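Satellite glial cells wrap the cell bodies of sensory neurons in dorsal root ganglia. Expression of 8 genes used as their markers was followed in ganglia of Ash1l+/- mice and of wild types from the same litters. The 8 genes, Fabp7, Cdh19, Glul, Slc1a3, Gja1, Apoe, Sox10 and Sox2, were taken by gene name from 54532 genes in the count table. All 8 passed the filter on low counts, as did 16032 genes in all. Ash1l encodes a histone H3 lysine 36 methyltransferase. Each genotype had 3 bulk RNA libraries of ganglia, given here as Ash1l+/- replicates 1 to 3 and WT (wild type) replicates 1 to 3. The labels give neither the age and strain of the mice nor the structure of the Ash1l allele. Nor do they state that the libraries stem from different animals. The p-values therefore reflect the spread among these samples alone, which may be technical.

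Satellite glia form a sheath around each sensory neuron, couple to one another through gap junctions, and take up glutamate and potassium from the narrow space between sheath and neuron. They arise from the neural crest, as Schwann cells do, and share SOX10 and many lipid genes with them. Apoe is also made by macrophages. In bulk tissue, fewer cells of a type and less RNA per cell cannot be told apart.

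Total counts ranged from 17209294 to 20545722 per library. Ash1l itself had 66.5, 66.5 and 68.9 CPM (counts scaled to a common effective library size, by the trimmed mean method) in the Ash1l+/- replicates, against 60.9, 30.9 and 54.4 CPM in WT replicates 1, 2 and 3. Libraries labelled Ash1l+/- did not have less of it. Its log2 fold change was 0.46 (adjusted p = 0.396 in edgeR) with all 6 libraries and 0.225 (adjusted p = 0.0593 in edgeR) without WT replicate 2. The Ash1l counts therefore do not check the labels, and each direction below rests on those labels. WT replicate 2 stood apart, with correlations of 0.833 to 0.864 with the other libraries across genes (which are not independent replicates), while the others reached at least 0.979 among themselves. The 8 genes took 0.815% of its counts, against 0.403% and 0.387% in WT replicates 1 and 3. Apoe alone held 130533 of those 143816 counts. The median of the 8 genes in WT replicate 2 was lower than in WT replicates 1 and 3, by -0.38 in log2 CPM. Each comparison is therefore given with all 6 libraries and with the 5 that remain without WT replicate 2. The comparison of 5 was chosen with earlier results of these data known, in which WT replicate 2 stood apart. Its p-values take that choice as given, and its wild-type spread rests on WT replicates 1 and 3 alone.

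Of the 8 genes, 6 had an entry in the RefSeq promoter table (GRCm38.p6), and Cdh19 and Sox10 had none. The 3 sequences below belong to the entries of genes that rose together without WT replicate 2, and run from 250 to 51 bases before the RefSeq start. Capitals mark the letters ACAAT or ACAAAG or their reverse complements ATTGT and CTTTGT, core letters bound by SOX proteins, searched on both strands.
Fabp7: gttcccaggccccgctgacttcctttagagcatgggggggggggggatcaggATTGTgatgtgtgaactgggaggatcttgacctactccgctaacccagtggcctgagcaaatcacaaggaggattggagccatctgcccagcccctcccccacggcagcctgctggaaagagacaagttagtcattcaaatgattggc
Slc1a3: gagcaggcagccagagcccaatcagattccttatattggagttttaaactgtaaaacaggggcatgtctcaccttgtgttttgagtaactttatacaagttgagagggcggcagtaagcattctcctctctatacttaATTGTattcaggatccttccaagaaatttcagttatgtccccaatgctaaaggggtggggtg
Gja1: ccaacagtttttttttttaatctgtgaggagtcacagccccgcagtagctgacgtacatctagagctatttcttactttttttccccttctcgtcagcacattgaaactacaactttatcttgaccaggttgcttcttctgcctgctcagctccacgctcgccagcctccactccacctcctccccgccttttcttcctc
The Fabp7 window lies at chr10:57784673-57784872 on the plus strand, the Slc1a3 window at chr15:8710858-8711057 on the minus strand, and the Gja1 window at chr10:56377050-56377249 on the plus strand. Fabp7 and Slc1a3 each held 1 match, with its first base at position -198 and at position -112 relative to the start, and the Gja1 window held none. Among the 6 genes with an entry, 4 held a match, the others being Apoe and Sox2. Of 32851 promoter windows of this length, 33.6% held at least 1 of the motifs, so a match describes the letters only.

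Levels per length ordered the genes over a wide range. In the authors' FPKM over the 5 libraries, Apoe, the lipid carrier apolipoprotein E, was highest at a mean of 1276 (range 1078 to 1421) and ranked 10 among all genes. Fabp7, a fatty acid binding protein that marks satellite glia and radial glia, had 228 FPKM (182 to 259) and ranked 122. Glul, glutamine synthetase, which turns glutamate into glutamine, had 113 FPKM (105 to 128). Sox10, the transcription factor that maintains neural crest glia, had 33.9 FPKM (28.6 to 39.9), and Cdh19, a cadherin of neural crest glia, had 20.2 FPKM (15.2 to 23.3). Sox2, a transcription factor of glial precursors that stays on in satellite glia, had 9.46 FPKM (8.68 to 10.8). Lowest were Gja1, the gap junction protein connexin 43, at 3.19 FPKM (2.55 to 3.90), and Slc1a3, the glutamate transporter GLAST, at 2.08 FPKM (1.77 to 2.45). No neighbours in this order overlapped in the 5 libraries. In WT replicate 2 the order differed at 1 place, with Cdh19 at 5.51 FPKM under Sox2 at 5.62 FPKM.

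**Figure D1:**
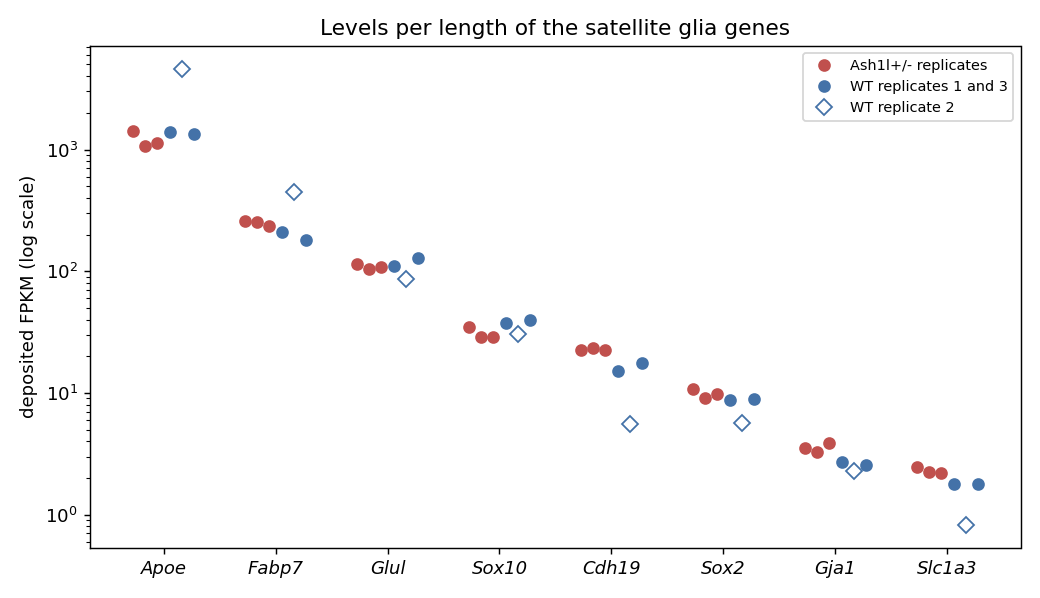
Deposited FPKM, which are scaled for gene length, of each satellite glia gene in each library on a log axis, with filled points for the Ash1l+/- replicates and WT replicates 1 and 3 and an open diamond for WT replicate 2. Apoe lies highest and Slc1a3 lowest. WT replicate 2 lies above the other libraries in Apoe and Fabp7, below them in Cdh19, Sox2, Slc1a3, Glul and Gja1, and among them in Sox10.

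The comparison of genotypes asked whether these genes differ in ganglia of Ash1l+/- mice. With all 6 libraries none of the 8 was called at an adjusted p of 0.05 by edgeR's quasi-likelihood test, where 0% of 16032 genes were called. DESeq2 called 35 genes in all and none of the 8. At an unadjusted p of 0.05, edgeR passed 1 of the 8, Gja1, against 10.6% of all genes. Without WT replicate 2, 4 of the 8 rose in Ash1l+/- (Cdh19, Gja1, Fabp7 and Slc1a3), 1 fell (Sox10), and Glul, Apoe and Sox2 did not pass. The background was 19.8% of 16395 genes called, 9.39% higher and 10.4% lower. With the libraries' trends along GC content and gene length removed from the 5 libraries, none of the 8 was called by edgeR and 7.04% of all genes were (2.63% higher and 4.41% lower). At an unadjusted p of 0.05, 4 of the 8 passed in that fit, against 21.7% of all genes. The member list's median log2 fold change was 0.17 with all 6 libraries, 0.27 with 5 and 0.17 with 5 and trends removed, against 0.00, 0.00 and 0.00 over all genes tested.

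The call count also moved with single libraries. When Ash1l+/- replicate 1 was also left out of the 5, 5 members were called (Apoe gained, Slc1a3 lost) among 4198 genes in all. Leaving out Ash1l+/- replicate 2 gave 3 members among 1855 genes, and leaving out Ash1l+/- replicate 3 gave 3 among 2120. In both fits the 3 were Cdh19, Fabp7 and Gja1, while Slc1a3 and Sox10 were lost. The fits without WT replicate 1 or 3 hold 1 wild type, whose variation is taken to equal that of the Ash1l+/- libraries. In these 2 fits, in that order, the log2 fold change was 0.36 and 0.58 for Cdh19 and 0.45 and 0.25 for Fabp7. It was 0.47 and 0.38 for Gja1, 0.37 and 0.34 for Slc1a3, and -0.38 and -0.29 for Sox10.

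Among the surface and lipid markers, Cdh19 had the largest rise. It had 93.4, 97.5 and 94.6 CPM in Ash1l+/- replicates 1, 2 and 3, against 63.6, 23.3 and 73.9 CPM in WT replicates 1, 2 and 3. Every Ash1l+/- library lay above every WT library, and WT replicate 2 lay far below the other wild types. The means were 95.2 ± 2.11 CPM in Ash1l+/- and 53.6 ± 26.7 CPM in WT (SD, n = 3 each). Its log2 fold change was 0.83 (SE 0.41, adjusted p = 0.386 in edgeR) with all 6 libraries and 0.47 (SE 0.08, adjusted p = 0.000781 in edgeR) with 5. With trends removed from the 5 it was 0.20 (SE 0.07, adjusted p = 0.0854 in edgeR). Cdh19 maps to chromosome 1 from 110888326 to 110977584 on the minus strand of GRCm38 (ENSMUSG00000047216).

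Fabp7 turned direction with WT replicate 2. It had 315, 312 and 289 CPM in Ash1l+/- replicates 1, 2 and 3, against 255, 550 and 223 CPM in WT replicates 1, 2 and 3. The Ash1l+/- libraries lay close together between WT replicate 2 above and WT replicates 1 and 3 below. The means were 305 ± 14.2 CPM in Ash1l+/- and 342 ± 180 CPM in WT (SD, n = 3 each). Fabp7 had a log2 fold change of -0.17 (SE 0.36, adjusted p = 0.782 in edgeR) with 6 libraries and 0.36 (SE 0.08, adjusted p = 0.00444 in edgeR) with 5. After trends were removed from the 5 it was 0.22 (SE 0.08, adjusted p = 0.123 in edgeR). The gene maps to chromosome 10 from 57784881 to 57788450, plus strand (ENSMUSG00000019874), 1.38 megabases past the end of Gja1 on the same chromosome.

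Apoe was not called with 6 or 5 libraries. It had 2954, 2255 and 2385 CPM in Ash1l+/- replicates 1, 2 and 3, against 2937, 9753 and 2801 CPM in WT replicates 1, 2 and 3. WT replicate 2 held over 3 times the level of any other library, and Ash1l+/- replicate 1 lay above both other wild types. The means were 2532 ± 372 CPM in Ash1l+/- and 5164 ± 3975 CPM in WT (SD, n = 3 each). Apoe had a log2 fold change of -1.03 (SE 0.52, adjusted p = 0.386 in edgeR) with 6 libraries, -0.18 (SE 0.09, adjusted p = 0.176 in edgeR) with 5 and 0.16 (SE 0.07, adjusted p = 0.210 in edgeR) with trends removed from the 5. Settings moved it both ways in the 5 libraries. Without Ash1l+/- replicate 1 as well, Apoe was called lower at -0.31 (adjusted p = 0.00172 in edgeR), and 1 other alternative called it higher at 0.22 (adjusted p = 0.000399 in edgeR). Apoe maps to chromosome 7 from 19696109 to 19699188 on the minus strand (ENSMUSG00000002985).

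**Figure D2:**
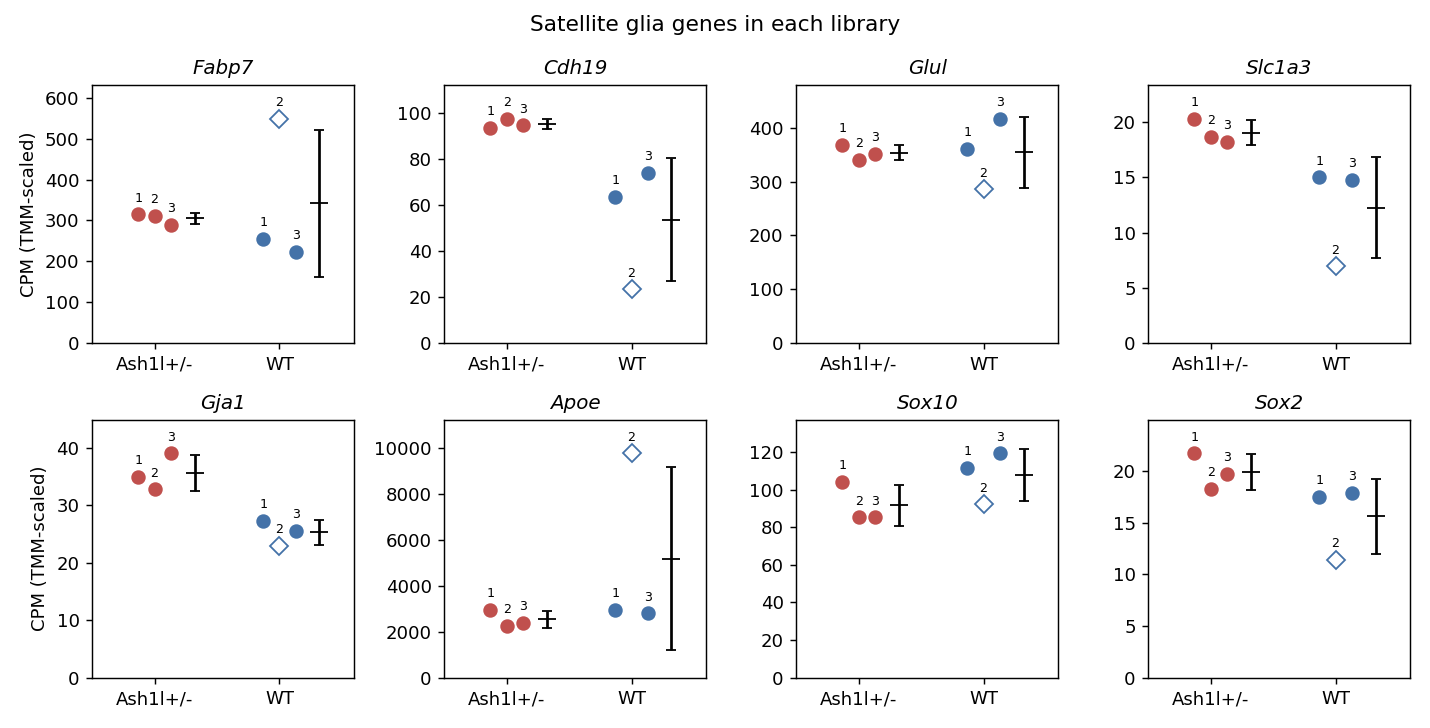
CPM of each satellite glia gene by genotype, with a point for each library marked by its replicate number, an open diamond for WT replicate 2, and a bar for the mean and SD of 3 libraries. Cdh19, Slc1a3, Gja1 and Sox2 have every Ash1l+/- library above every WT library, while WT replicate 2 is the highest library in Fabp7 and Apoe.

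Of the genes for coupling and transmitter uptake, Gja1 and Slc1a3 rose in the 5 libraries and Glul was not called. Gja1 had 35.0, 32.8 and 39.1 CPM in Ash1l+/- replicates 1, 2 and 3, against 27.4, 22.9 and 25.6 CPM in WT replicates 1, 2 and 3. The genotypes did not overlap, and here WT replicate 2 was close to the other wild types. Means were 35.6 ± 3.19 CPM in Ash1l+/- and 25.3 ± 2.23 CPM in WT (SD, n = 3 each). Its log2 fold change was 0.49 (SE 0.15, adjusted p = 0.386 in edgeR) with 6 libraries, 0.43 (SE 0.10, adjusted p = 0.00725 in edgeR) with 5 and 0.14 (SE 0.10, adjusted p = 0.414 in edgeR) with trends removed from the 5. With trends removed from all 6 it turned to -0.13 (adjusted p = 0.771 in edgeR). Gja1 maps to chromosome 10 from 56377330 to 56402513, plus strand (ENSMUSG00000050953).

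Slc1a3 had 20.3, 18.7 and 18.2 CPM in Ash1l+/- replicates 1, 2 and 3, against 15.02, 6.95 and 14.8 CPM in WT replicates 1, 2 and 3. These values rest on 444, 348 and 327 reads in Ash1l+/- and on 304, 93 and 285 reads in WT. The genotypes did not overlap. Its log2 fold change was 0.64 (SE 0.31, adjusted p = 0.386 in edgeR) with 6 libraries and 0.36 (SE 0.12, adjusted p = 0.0378 in edgeR) with 5. The call was lost in DESeq2 (adjusted p = 0.0501), without a count filter in edgeR (adjusted p = 0.0541), without any further single library, and with trends removed, where the log2 fold change was 0.18 (adjusted p = 0.360 in edgeR). Its position is chromosome 15 from 8634124 to 8710764 on the minus strand (ENSMUSG00000005360).

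Glul had 369, 341 and 352 CPM in Ash1l+/- replicates 1, 2 and 3, against 361, 286 and 418 CPM in WT replicates 1, 2 and 3. The WT libraries spanned the whole range of the Ash1l+/- libraries. Its log2 fold change was 0.00 (SE 0.18, adjusted p = 0.989 in edgeR) with 6 libraries, -0.14 (SE 0.08, adjusted p = 0.234 in edgeR) with 5 and -0.13 (SE 0.07, adjusted p = 0.269 in edgeR) with trends removed from the 5. Glul maps to chromosome 1 from 153899944 to 153909723, plus strand (ENSMUSG00000026473).

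Sox10 and Sox2 pointed in opposite directions before trends were removed and in the same direction after, and Sox2 was not called. Sox10 had 104, 85.3 and 85.3 CPM in Ash1l+/- replicates 1, 2 and 3, against 112, 92.3 and 119 CPM in WT replicates 1, 2 and 3. Without WT replicate 2 all Ash1l+/- libraries lay below both wild types, and WT replicate 2 lay within the Ash1l+/- range. Among all genes tested without WT replicate 2, 25.3% had every Ash1l+/- library below both wild types. Sox10 had a log2 fold change of -0.23 (SE 0.17, adjusted p = 0.454 in edgeR) with 6 libraries and -0.33 (SE 0.09, adjusted p = 0.0134 in edgeR) with 5. The call was lost when Ash1l+/- replicate 2 (adjusted p = 0.0774 in edgeR) or Ash1l+/- replicate 3 (adjusted p = 0.0590 in edgeR) was also left out. With trends removed the direction turned, to 0.07 (SE 0.08, adjusted p = 0.660 in edgeR) with 5 libraries and 0.33 (SE 0.29, adjusted p = 0.601 in edgeR) with 6. Sox10 maps to chromosome 15 from 79154908 to 79165240 on the minus strand (ENSMUSG00000033006).

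Sox2 had 21.7, 18.3 and 19.7 CPM in Ash1l+/- replicates 1, 2 and 3, against 17.5, 11.4 and 17.9 CPM in WT replicates 1, 2 and 3. The genotypes did not overlap, though Ash1l+/- replicate 2 and WT replicate 3 differed by little. Sox2 had a log2 fold change of 0.35 (SE 0.22, adjusted p = 0.414 in edgeR) with 6 libraries, 0.17 (SE 0.12, adjusted p = 0.319 in edgeR) with 5 and 0.23 (SE 0.11, adjusted p = 0.215 in edgeR) with trends removed from the 5. Sox2 is on chromosome 3 from 34650405 to 34652461, plus strand (ENSMUSG00000074637).

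Over all 6 libraries, 4 of the 8 genes (Cdh19, Gja1, Slc1a3 and Sox2) had no overlap between genotypes, each higher in Ash1l+/-. Among all genes tested 38.5% had no overlap, 19.3% with Ash1l+/- higher and 19.2% lower. In a two-sided exact permutation of log2 CPM, each of the 4 was at p = 0.1, which 3 against 3 libraries cannot go below. Any gene without overlap has that value, so it adds nothing to the lack of overlap.

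**Figure D3:**
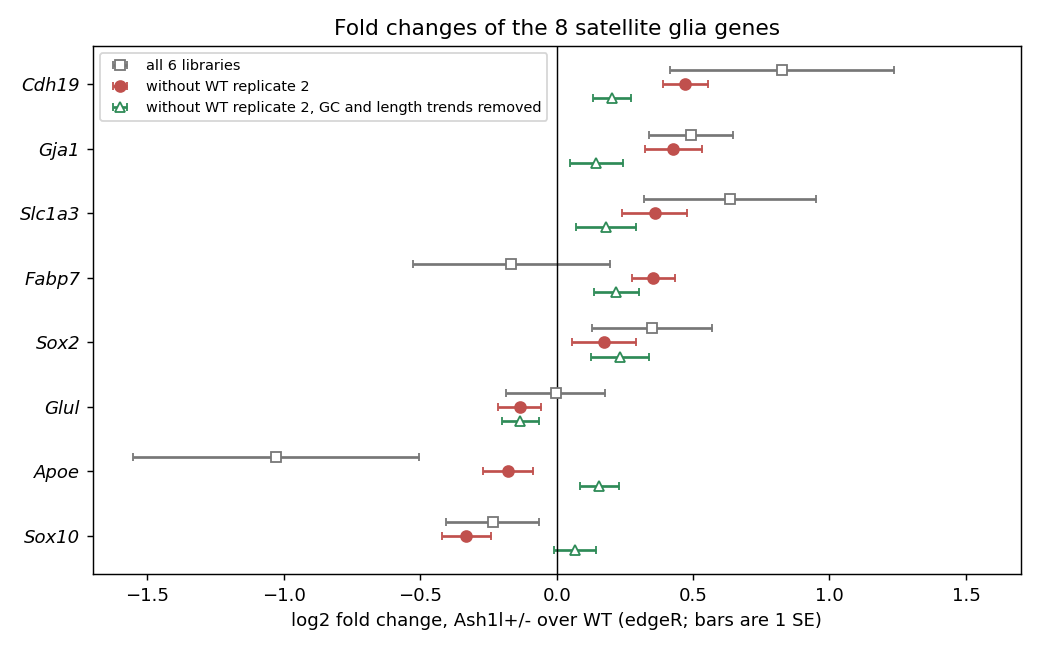
Log2 fold change of Ash1l+/- over WT for each gene, with bars of 1 SE, for all 6 libraries (grey squares), for the 5 without WT replicate 2 (red circles) and for those 5 with GC and length trends removed (green triangles). The 5-library values of Cdh19, Gja1, Slc1a3 and Fabp7 move toward 0 with trends removed, and those of Sox10 and Apoe cross 0.

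Transcript base composition moved with these results. In the 5 libraries the log2 fold change of all genes fell with the GC content of the longest transcript, at a Spearman rho of -0.55 across 16395 genes, and rose with gene length at a rho of 0.28 (across genes, which are not independent replicates). The median log2 fold change was 0.26 among the 10% of genes with the lowest GC content and -0.32 among the 10% with the highest. The 4 genes that rose had GC contents of 37.4% (Cdh19), 42.2% (Gja1), 42.6% (Fabp7) and 45.7% (Slc1a3). Sox10, which fell, had 61.8%, and Apoe 59.5%. Glul and Sox2 lay near the median of 49.6%, at 49.2% and 50.5%. With the trends removed, 7 of the 8 genes had a positive log2 fold change in the 5 libraries, the exception being Glul, and none passed. Of all genes, 8089 of 16395 were positive in that fit, and 4 of the 8 were positive with trends removed from all 6 libraries. Whether the trends arise in the tissue or in library preparation was not tested.

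**Figure D4:**
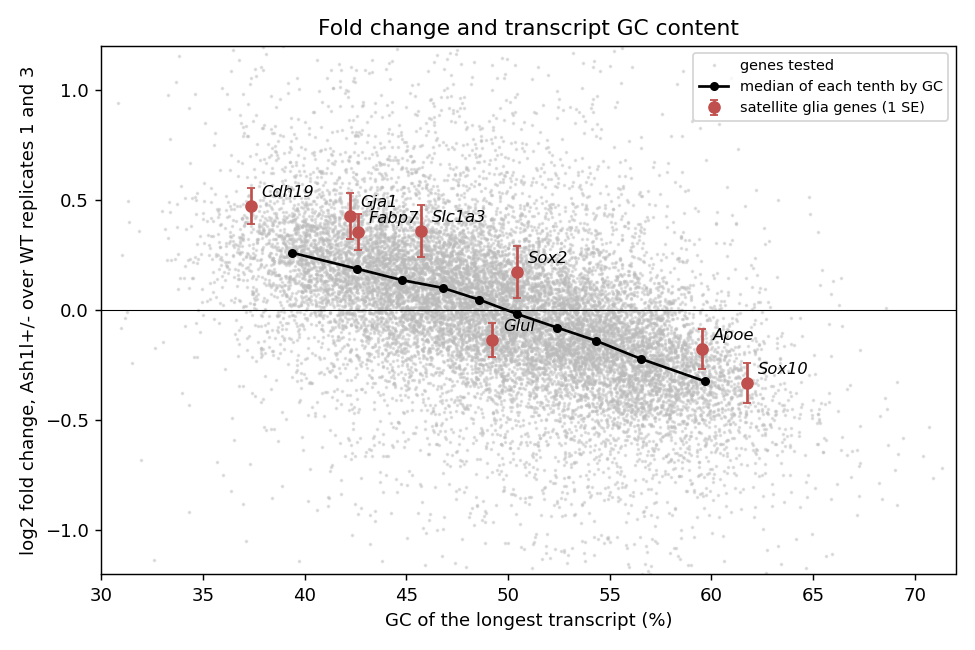
Log2 fold change of Ash1l+/- over WT replicates 1 and 3 against the GC content of the longest transcript, with grey points for 16380 genes with a GC value (248 lie outside the axes), a black line for the medians of 10 equal groups of genes by GC content, and red points with 1 SE for the satellite glia genes. The median falls from left to right, and the 4 genes that rose lie at low GC content while Sox10 and Apoe lie at high GC content.

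Ratios between genes in the same library do not depend on library scaling. The 6 pairs were picked with their values in view, so their ratios are a description with no test. The FPKM ratio of Cdh19 to Sox10 was 0.640, 0.815 and 0.791 in Ash1l+/- replicates 1, 2 and 3, against 0.406, 0.180 and 0.442 in WT replicates 1, 2 and 3. The ratio of Fabp7 to Sox10 was 7.38, 8.92 and 8.27 in Ash1l+/-, against 5.57, 14.5 and 4.55 in WT, so that WT replicate 2 lay above every other library and the genotypes overlapped. The ratios of Sox2 to Sox10, Gja1 to Sox10 and Slc1a3 to Glul were higher in every Ash1l+/- library than in every WT library, as was Cdh19 to Sox10, and that of Apoe to Fabp7 was lower. Sox2, Gja1, Slc1a3 and Cdh19 alone already had no overlap between genotypes, so their ratios are not separate results. The genes of most pairs differ in GC content, and no trend was removed from these ratios.

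WT replicate 2 differed from the other wild types in opposite directions among the 8 genes. On the log2 scale it was higher by 1.77 in Apoe and 1.21 in Fabp7. It was lower in Cdh19 at -1.56, Slc1a3 at -1.09, Sox2 at -0.63, Glul at -0.44, Sox10 at -0.32 and Gja1 at -0.21. Its difference from them across all genes followed GC content at a Spearman rho of 0.26 and gene length at a rho of -0.35. Summed markers of skeletal muscle were at 40.0 CPM in it, against 4.001 and 5.13 CPM in WT replicates 1 and 3, and cytosolic ribosomal messages at 22190 CPM, against 3959 and 3911 CPM. The part of these differences in the results was not tested.

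Other genes linked to satellite glia gave a mixed picture in the 5 libraries, where 7 of 24 rose, 3 fell and 14 did not pass. Of all genes, 9.39% were called higher and 10.4% lower there, which is also the background for the lists below. None of the 24 passed in edgeR with all 6 libraries. Kcnj10, the inwardly rectifying potassium channel Kir4.1 that buffers potassium around the neuron, rose in those 5. It had 105, 91.7 and 94.2 CPM in Ash1l+/- replicates 1, 2 and 3, against 74.0, 47.4 and 71.7 CPM in WT replicates 1, 2 and 3. The genotypes did not overlap. Its log2 fold change was 0.59 (SE 0.21, adjusted p = 0.386 in edgeR) with 6 libraries and 0.42 (SE 0.08, adjusted p = 0.00198 in edgeR) with 5. It held at 0.41 (SE 0.07, adjusted p = 0.00193 in edgeR) with trends removed, at a transcript GC content of 49.6%. In every alternative run on the 5 libraries Kcnj10 stayed called, with a log2 fold change of 0.35 to 0.46.

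Ptprz1, a receptor tyrosine phosphatase, rose by a log2 fold change of 0.46 in the 5 libraries (adjusted p = 0.000819 in edgeR) and was at 0.19 with trends removed (adjusted p = 0.101 in edgeR). Mmp15, a membrane-type metalloproteinase, and Bcan, the proteoglycan brevican, fell by 0.36 and 0.32 on the log2 scale and were not called with trends removed. With trends removed 3 of the 24 were called, all higher, against 2.63% of all genes called higher. They were Kcnj10, the calcium-binding protein gene S100b at 0.25 (adjusted p = 0.0309 in edgeR) and Dbi, the diazepam binding inhibitor, at 0.32 (adjusted p = 0.0152 in edgeR), the last 2 named after their values were seen. S100b and Dbi pointed lower with all 6 libraries, at -0.48 and -1.32, where WT replicate 2 had 1629 and 1027 CPM. Gfap, an intermediate filament that satellite glia raise after nerve injury, was at 0.73 to 2.68 CPM in Ash1l+/- and 1.93 to 2.33 CPM in WT and was not called in any comparison.

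**Figure D5:**
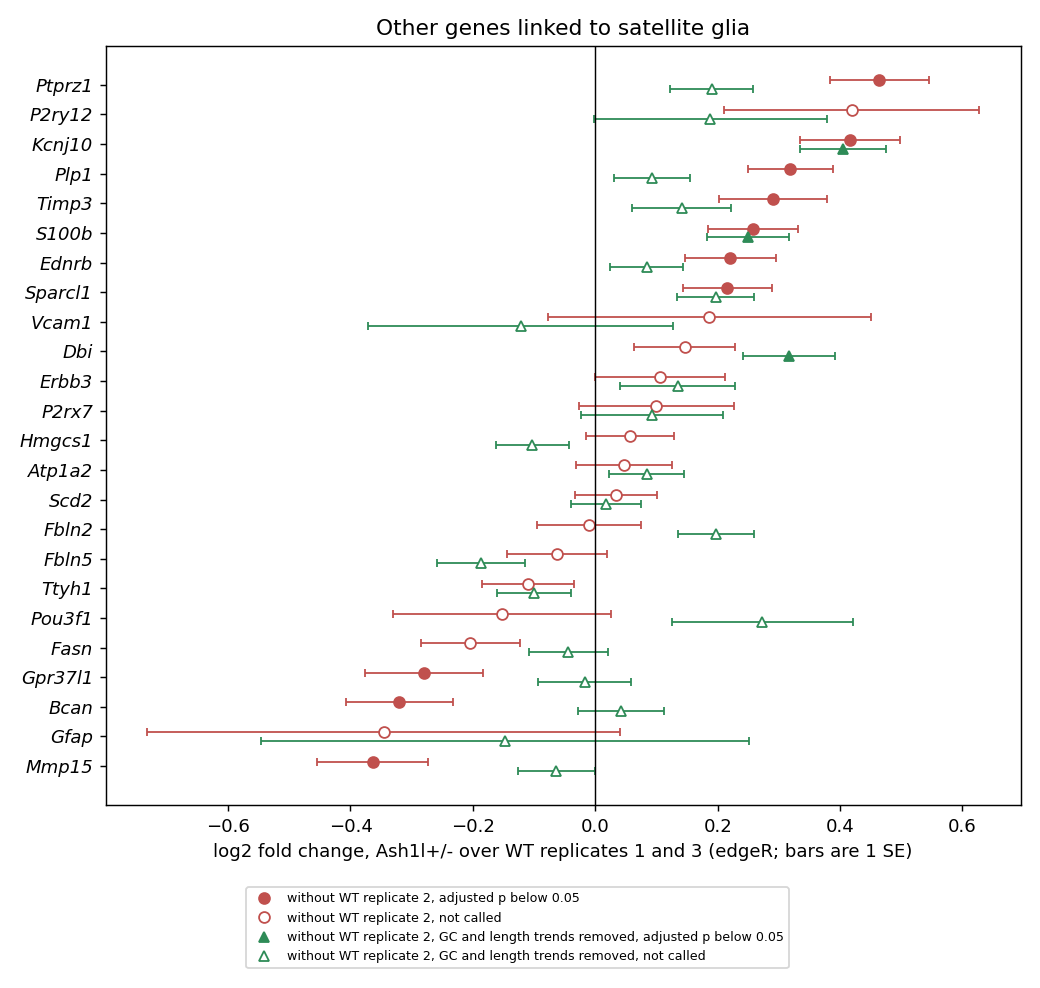
Log2 fold change of Ash1l+/- over WT replicates 1 and 3 with 1 SE for 24 other genes linked to satellite glia, as circles without and triangles with the removal of GC and length trends, filled where the adjusted p is below 0.05. Kcnj10 and S100b are filled in both, Dbi with trends removed, and 8 genes without trend removal alone.

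Around Slc1a3 and Glul, the glutamate and glutamine cycle, both included, had 11 of 12 genes tested in the 5 libraries. Only Slc1a3 rose and only Slc17a7, a vesicular glutamate transporter of neurons, fell (log2 fold change -0.28, adjusted p = 0.0347 in edgeR). With trends removed neither passed. Slc1a2, the glutamate transporter of astrocytes, reached 4.81 CPM at most.

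Among 11 connexin and pannexin genes tested, Gja1 rose together with Gjc3, connexin 29 of glia, at 0.30 (adjusted p = 0.0230 in edgeR). Panx2, a pannexin of neural tissue, was lower at -0.43 (adjusted p = 0.00730 in edgeR). None of the 3 passed with trends removed.

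Beside Fabp7 and Apoe, the list of lipid binding and lipoprotein genes had 4 of 14 called in the 5 libraries, all higher. They were Fabp7, the cholesterol exporter gene Abca1 at 0.40 (adjusted p = 0.00638 in edgeR), the lipoprotein receptor gene Vldlr at 0.37 (adjusted p = 0.00832 in edgeR) and Apod, apolipoprotein D, at 0.29 (adjusted p = 0.0324 in edgeR). With all 6 libraries Apod pointed lower, at -0.42, and WT replicate 2 had 1409 CPM. Fabp7, Abca1, Vldlr and Apod did not pass with trends removed, where Clu, the secreted chaperone clusterin, was called at 0.24 (adjusted p = 0.0185 in edgeR), against 0.03 before and -0.77 with all 6 libraries. Clu was named after its values were seen. The list's median was 0.00 with 5 libraries and 0.13 with trends removed.

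Among 16 SOX and neural crest regulators, 1 rose and 2 fell in the 5 libraries. Zeb2, a repressor that promotes Schwann cell differentiation, rose by 0.51 (adjusted p = 0.000524 in edgeR). Egr2, the master factor of myelination, was lower at -0.72 (adjusted p = 0.00426 in edgeR), beside Sox10. With trends removed Egr2 alone was called, at -0.65 (adjusted p = 0.0140 in edgeR), while Zeb2 was at 0.11.

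Genes of the other ganglion cells were set beside the members, since several of the 8 are shared with Schwann cells. In the 5 libraries 3 of 12 myelinating Schwann cell genes fell and 0 rose, among them Mbp, myelin basic protein, at -0.31 (adjusted p = 0.0159 in edgeR) and Mag, myelin-associated glycoprotein, at -0.41 (adjusted p = 0.0180 in edgeR). The third was Egr2, which is also among the regulators above. Mbp and Egr2 were also called with trends removed, Mag was not. Summed CPM of the 12 genes ran from 4128 to 4884 in Ash1l+/-, against sums of 5161, 6044 and 4960 in WT replicates 1, 2 and 3. Of 8 non-myelinating Schwann cell genes, Chl1 and Scn7a rose by 0.57 and 0.35 and Ngfr was called at -0.25 (0.10 with all 6 libraries), and none passed with trends removed.

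In the 5 libraries, sensory neuron markers had 4 higher and 2 lower of 15 (median 0.06). Fibroblast and meningeal markers had 0 and 5 of 11 (median -0.37), endothelial and mural markers 2 and 0 of 12, and macrophage markers 0 and 0 of 11. Skeletal muscle markers had 0 and 0 of 3 tested, and erythrocyte markers 0 and 3 of 6. Ribosomal protein genes had 1 and 9 of 18, and mitochondrial transcripts 1 and 1 of 13. Of all genes, 9.39% were called higher and 10.4% lower. With trends removed the counts were 4 and 1 for neurons, 0 and 5 for fibroblasts, 1 and 0 for vessels and 0 and 0 for macrophages. They were 0 and 0 for muscle, 0 and 1 for erythrocytes, 1 and 6 for ribosomal proteins and 0 and 3 for mitochondria. That fit called 2.63% of all genes higher and 4.41% lower. Summed macrophage CPM was 50.1 to 56.98 in Ash1l+/-, against sums of 59.9, 143 and 61.0 in WT replicates 1, 2 and 3. Among markers of central nervous system glia, Olig1, Olig2, Opalin and Mog stayed at or under 0.366 CPM in every library. Of 7 such genes tested, Aqp4, a water channel also found on satellite glia, rose by 0.72 (adjusted p = 0.00440 in edgeR), Mobp, a myelin protein of oligodendrocytes, was lower at -1.28 (adjusted p = 0.000129 in edgeR), and Cnp, a myelin enzyme, at -0.23 (adjusted p = 0.0471 in edgeR). Aqp4 at 0.52 and Mobp at -1.201 were also called with trends removed. Their part in the levels of the 8 genes was not tested.

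The genes most like Fabp7 and Sox10 in pattern were sought among 11219 genes that code for protein and averaged 5 CPM or more, by Pearson correlation of log2 CPM over 5 libraries, given as a description. For Fabp7 they were Adamts5, Gatm, Pygo1, Specc1 and D5Ertd579e, with r from 0.994 to 0.997, and 393 genes exceeded 0.9. For Sox10 they were Gtpbp1, Gys1, Six5, Dusp5 and Kctd11, with r from 0.998 to 1.00, and 946 genes exceeded 0.9. The 5 libraries share a genotype contrast and a GC trend, and the part of either in these correlations was not tested.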

How the data were processed

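The authors deposited raw read counts per gene and FPKM values of 6 libraries. The submitters' processing notes name GRCm38 (mm10), featureCounts 1.5.0-p3 and HISAT2 2.0.5, without parameters. Per the labels' protocols, frozen ganglia gave Trizol RNA that went into a NEBNext Ultra kit. Strand is not kept by this kit, so a gene and an overlapping antisense gene cannot be told apart. The deposited FPKM equal the counts per length divided by 1 effective library size per sample (0.75 of the total in WT replicate 2), so they add no measurement. All pairs of libraries differed by more than sampling noise (lowest chi-square per degree of freedom 3.71).

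After filterByExpr and TMM scaling, genotype was tested in edgeR 4.0.16 (R 4.3.3) by quasi-likelihood, and p-values were adjusted by Benjamini-Hochberg over all genes. The scripts were tested on simulated data. The SE was taken as log2 fold change over root F. For trend removal, loess curves (span 0.3) of deviations in log2 CPM, fitted per library on the GC content of the longest GENCODE transcript and on gene length, were entered as offsets. Alternatives used other scaling and filters, DESeq2 1.42.0, limma 3.58.1 on counts and on log2(FPKM + 1) or log2(FPKM + 0.1), the replicate number as a block, and leaving out single libraries.

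The members, the lists and the comparison without WT replicate 2 were chosen with earlier results of these data known. Named genes were the 8 members, Ash1l and, per list, up to 4 genes called in the 5 libraries with the largest fold change and a mean CPM of at least 1. Dbi, S100b with trends removed, and Clu were named after their values were seen, and so were Gfap, Slc1a2, Olig1, Olig2, Opalin and Mog, given for their levels. For the neuron, fibroblast, vascular, muscle, erythrocyte, ribosomal and mitochondrial lists no single genes are named. A gene of the glutamate list is not reported here.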

Additional observations from a re-analysis of the deposited data

How the results depend on the processing

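With all 6 libraries, none of the 8 genes was called under other scaling or filters, DESeq2, limma-voom, either FPKM scale, trend removal, the replicate block or leaving out any library but WT replicate 2. Genes called numbered 0 except 35 in DESeq2, and ran from 0 to 3252 when 1 library was left out (members 0 to 5). Log2 fold changes of these 6 libraries turned sign for Glul under upper-quartile scaling (0.041), library totals (0.11), no filter (0.023), voom (0.011), both FPKM scales (0.021 each) and the replicate block (0.012). With library totals Fabp7 (0.067) and Slc17a7 (0.011) turned. Leaving out 1 library gave ranges across 0 for Glul (-0.14 to 0.14), Fabp7 (-0.39 to 0.36), Slc17a7 (-0.28 to 0.063), Apod (-0.67 to 0.29), Ngfr (-0.25 to 0.36), Dbi (-1.72 to 0.15), S100b (-0.74 to 0.26) and Clu (-1.05 to 0.031). With trends removed Gja1 (-0.13), Sox10 (0.33), Slc17a7 (0.15), Panx2 (0.11), Gjc3 (-0.20), Zeb2 (-0.14), Mag (0.047) and Ash1l (-0.061) turned, and stood at -0.095, 0.41, 0.18, 0.12, -0.14, -0.11, 0.081 and -0.058 with the replicate block added.

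In the 5 libraries, trend removal gave 1154 genes, 0 members and 20 other listed genes called, against 3252, 5 and 42, with a member median of 0.17. It turned Apoe (0.16), Sox10 (0.068), Bcan (0.042), Ngfr (0.053) and Ash1l (-0.041). limma called 1528 genes, 2 members and 13 listed genes on log2(FPKM + 1) and 1587, 2 and 13 on log2(FPKM + 0.1), the 2 members being Fabp7 and Cdh19. With 1 further library left out, calls ran from 796 genes (without WT replicate 1) to 4198 (without Ash1l+/- replicate 1), 1 to 5 members and 10 to 51 listed genes, and Clu (-0.011 to 0.066) crossed 0. The cause of these changes was not tested.

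Over all 6 libraries, deviations of same-numbered libraries from their genotype's mean had correlations of 0.003, -0.032 and 0.031. WT replicate 2 enters the wild-type mean, so these values cannot decide whether the numbers pair the samples. The replicate block gave 3982 genes and 5 members in the 5 libraries. The replicate block with GC and length trends removed gave 1523 genes and 2 members, Fabp7 and Apoe, and turned Apoe (0.22, adjusted p = 0.000399 in edgeR), Sox10 (0.10), Panx2 (0.04), Ngfr (0.069) and Ash1l (-0.019).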
